A study of Mus musculus with 48 samples.

Results

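Occupancy of the negative elongation factor NELF was compared between Zfp131KO and wildtype mouse embryonic stem cells by ChIP-seq, across all promoters and distal sites. The groups were chosen by target, genotype and culture, and they hold 4 of the 48 samples, 2 NELF libraries of Zfp131KO and 2 of wildtype. The Zfp131KO cells are an Ainv15 line labelled iZfp131-HA Zfp131KO, in which the gene of the zinc finger protein ZFP131 is deleted and an HA-tagged copy can be induced by doxycycline. The wildtype cells are the Ainv15(iCre) line. Both were grown for 3 days without doxycycline in medium with LIF and without the kinase inhibitor pair (-2i+LIF), so the tagged copy was not induced. The labels give 1 line per genotype, so an effect of the deletion and a difference between lines cannot be told apart. They do not name the NELF subunit that the antibody binds.

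NELF is a protein complex that, together with DSIF, holds RNA polymerase II in a paused state shortly after transcription starts. Release of the polymerase needs the kinase P-TEFb, which phosphorylates NELF, DSIF and the polymerase, after which NELF leaves. In embryonic stem cells paused polymerase is known at active genes and also at many developmental genes whose promoters carry both H3K4me3 and H3K27me3.

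Each genotype is represented by a single list of binding events, in which the libraries are pooled. The Zfp131KO list holds 20265 events from 61.5 M reads and the wildtype list 60923 events from 60.5 M reads. The value of an event is the number of reads the authors' caller assigned to it, and the lowest values in the lists are 49.0 reads in Zfp131KO and 47.0 in wildtype. A promoter with no event in a list is called not listed here, which is not a value of 0. The signal share stated in the file headers was 11.4% for Zfp131KO, with 9.7% and 13.2% in its libraries, against 23.1% for wildtype. This share comes from the headers and is not the summed reads of the listed events over total reads. The wildtype header names 1 replicate where the labels give 2. With 1 pooled list per genotype there is no replicate error and no test, so ratios are given with exact 95% intervals that cover counting error only. Scaled by total reads, as done throughout, the median promoter ratio was below 1. Scaled by the summed reads in events, every log2 ratio would be higher by 1.06, so that log2 ratios between -1.06 and 0 would change sign. Gene groups are therefore described relative to the median of all promoters, which that scaling leaves as it is. Less NELF per cell and fewer cells with NELF at a site cannot be told apart in such bulk samples.

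Promoter sequences of 8 genes are shown here, as examples of promoters with more NELF in Zfp131KO, of promoters not listed there and of the promoters with the most NELF. Each runs from 250 bases before to 50 bases after the annotated start, 5′ to 3′ on the strand of the gene, as given by RefSeq for GRCm38.p6, the assembly of the mm10 build used for the events. Where a gene has several starts, the one with the most NELF reads is shown. Capitals mark matches on either strand to 3 motifs, the CCAAT box under its own name, the GC box spelled GGGCGG, and the cyclic AMP response element spelled TGACGTCA. The TATA box spelled TATAAA, an ETS motif (CCGGAAGT) and an amino acid response element (TGATGCAA) were searched in the same way. No exact match to these was found in these promoters. Other spellings, such as the letters tatatata in the Fgf4 promoter, were not searched. Ak1, Lats2 and Dusp8 had the largest Zfp131KO to wildtype ratios among promoters at or above the median level in the higher genotype, Psat1, Fgf4 and Hspb6 had the most wildtype reads among promoters not listed in Zfp131KO, and Ing1 and Brd2 had the most wildtype reads of all.
Ak1, chr2:32629250-32629549, plus strand: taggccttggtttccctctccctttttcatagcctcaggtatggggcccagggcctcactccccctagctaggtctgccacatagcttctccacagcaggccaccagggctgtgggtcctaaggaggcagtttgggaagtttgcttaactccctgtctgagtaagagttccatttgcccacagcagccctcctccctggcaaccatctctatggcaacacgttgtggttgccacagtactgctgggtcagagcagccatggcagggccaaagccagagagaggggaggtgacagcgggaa
Lats2, chr14:57746074-57746373, minus strand: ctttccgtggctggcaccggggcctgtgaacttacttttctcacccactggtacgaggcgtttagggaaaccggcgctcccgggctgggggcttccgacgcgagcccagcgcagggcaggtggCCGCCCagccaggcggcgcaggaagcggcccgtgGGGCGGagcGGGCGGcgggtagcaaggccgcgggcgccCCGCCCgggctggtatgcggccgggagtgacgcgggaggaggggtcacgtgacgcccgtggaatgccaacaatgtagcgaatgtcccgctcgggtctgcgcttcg
Dusp8, chr7:142095235-142095534, minus strand: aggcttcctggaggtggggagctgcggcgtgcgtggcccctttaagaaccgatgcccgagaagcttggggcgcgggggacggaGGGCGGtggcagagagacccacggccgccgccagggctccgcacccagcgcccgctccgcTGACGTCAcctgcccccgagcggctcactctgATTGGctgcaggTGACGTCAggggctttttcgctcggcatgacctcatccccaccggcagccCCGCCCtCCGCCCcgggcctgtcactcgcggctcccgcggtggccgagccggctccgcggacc
Psat1, chr19:15924573-15924872, minus strand: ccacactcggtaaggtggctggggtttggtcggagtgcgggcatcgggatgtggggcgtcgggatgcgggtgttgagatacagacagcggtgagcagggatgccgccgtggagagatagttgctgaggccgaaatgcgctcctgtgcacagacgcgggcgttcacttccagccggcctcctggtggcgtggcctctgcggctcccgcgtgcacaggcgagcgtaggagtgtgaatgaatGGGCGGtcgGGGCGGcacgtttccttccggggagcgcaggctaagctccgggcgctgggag
Fgf4, chr7:144861136-144861435, plus strand: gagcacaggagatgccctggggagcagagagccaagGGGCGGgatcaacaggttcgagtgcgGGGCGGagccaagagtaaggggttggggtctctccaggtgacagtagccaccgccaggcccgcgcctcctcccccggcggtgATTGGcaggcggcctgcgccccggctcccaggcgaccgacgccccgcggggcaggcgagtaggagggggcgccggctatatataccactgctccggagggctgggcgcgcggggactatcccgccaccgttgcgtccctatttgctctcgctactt
Hspb6, chr7:30552290-30552589, plus strand: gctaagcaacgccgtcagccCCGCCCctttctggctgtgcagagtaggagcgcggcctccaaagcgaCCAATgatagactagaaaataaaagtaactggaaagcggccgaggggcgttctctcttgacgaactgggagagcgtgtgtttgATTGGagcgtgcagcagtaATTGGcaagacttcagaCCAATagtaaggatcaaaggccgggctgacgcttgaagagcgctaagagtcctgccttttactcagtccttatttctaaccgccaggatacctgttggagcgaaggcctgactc
Ing1, chr8:11555512-11555811, plus strand: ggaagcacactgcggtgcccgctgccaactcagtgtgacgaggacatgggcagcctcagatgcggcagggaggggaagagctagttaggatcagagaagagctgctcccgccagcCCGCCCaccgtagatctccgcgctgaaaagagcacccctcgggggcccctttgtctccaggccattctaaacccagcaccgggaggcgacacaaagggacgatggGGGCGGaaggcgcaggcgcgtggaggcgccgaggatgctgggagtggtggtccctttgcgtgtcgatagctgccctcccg
Brd2, chr17:34119851-34120150, minus strand: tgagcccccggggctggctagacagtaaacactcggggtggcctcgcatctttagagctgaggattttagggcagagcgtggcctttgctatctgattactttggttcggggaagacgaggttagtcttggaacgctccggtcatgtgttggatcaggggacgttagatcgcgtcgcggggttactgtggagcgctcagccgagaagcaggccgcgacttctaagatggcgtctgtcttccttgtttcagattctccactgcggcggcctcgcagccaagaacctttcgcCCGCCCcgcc
GC boxes are present in 7 of these 8 promoters and CCAAT boxes in 3, and the Ak1 promoter holds none of the motifs and 2 CpG pairs, against 17 to 37 CpG pairs in the others. The Dusp8 promoter holds 2 cyclic AMP response elements. A match is a description of the letters and does not show that a factor binds there.

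Scaled by total reads, promoter occupancy was lower in Zfp131KO at most genes, and whether a promoter was still listed followed its wildtype level. Of 21900 protein-coding genes, 17492 had a RefSeq start and 2876 were placed at the gene end with the most wildtype H3K4me3. Reads were summed over events within 1000 bp of the starts. A minimum of 50 wildtype reads was reached at 13113 genes, of which 9963 (76.0%, Wilson 95% interval 75.2 to 76.7) had an event in Zfp131KO and 3150 (24.0%) had none. Among the listed promoters the median log2 ratio of Zfp131KO over wildtype reads was -0.73, which is 60.3% of the wildtype level, with quartiles of -1.18 and -0.40. At least 2-fold lower were 3340 listed promoters (33.5%), and at least 2-fold higher were 18 (0.181%). More scaled reads in Zfp131KO than in wildtype were found at 495 listed promoters (4.97%). The interval of the ratio lay wholly below 0 for 8912 promoters and wholly above 0 for 209.

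**Figure D1:**
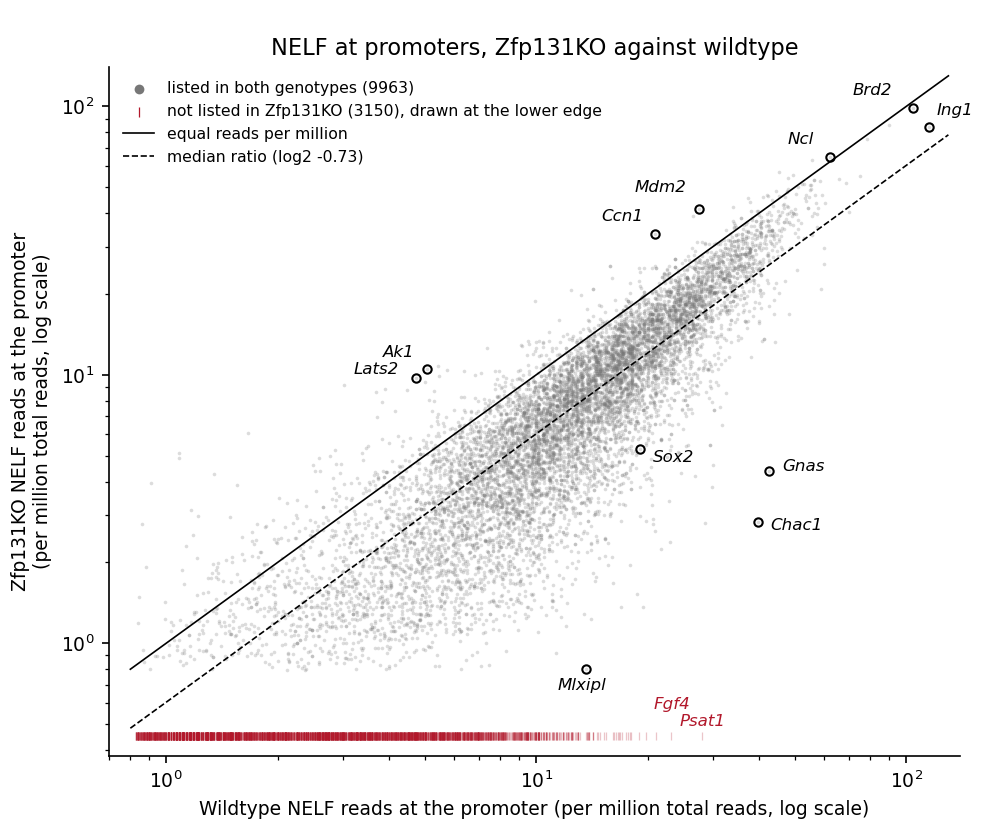
NELF reads scaled by total reads (RPM) at each promoter in Zfp131KO (vertical, log scale) and in wildtype (horizontal, log scale), with grey points for the 9963 promoters listed in both genotypes and red ticks for the 3150 not listed in Zfp131KO. The dashed line marks the median log2 ratio of -0.73, and most points lie below the line of equal reads; scaled by reads in events that median would be 0.33.

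The share of promoters listed in Zfp131KO was 14.2% in the lowest of 10 equal bins of promoters by wildtype reads and 56.6% in the third bin, and it was 99.9% in the highest. Where listed, the median log2 ratio was -1.05 in the third bin and -0.49 in the highest. In the lowest bin it was -0.13, but a promoter with so few wildtype reads can be listed in Zfp131KO only when its ratio is high, since the list holds no event under 49.0 reads. The median wildtype reads of gene lists, 577 over all promoters, are given with their ratios.

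**Figure D2:**
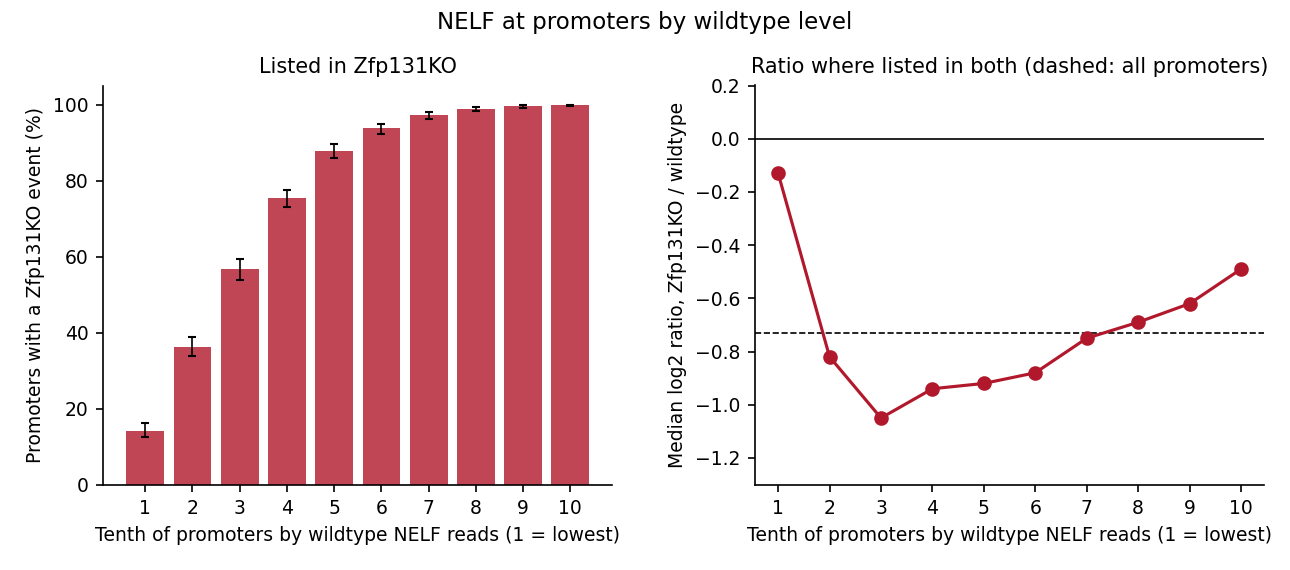
Left, percent of promoters with a Zfp131KO event in each of 10 equal bins of promoters by wildtype NELF reads, with Wilson 95% intervals. Right, median log2 ratio of Zfp131KO over wildtype reads among promoters listed in both. The listed share runs from 14.2% to 99.9%, and the median ratio is lowest, at -1.05, in the third bin.

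The 10 genes with the most wildtype NELF at their promoters were all listed in Zfp131KO, with log2 ratios between -0.79 and 0.06. Ing1, a subunit gene of the SIN3 histone deacetylase complex on chromosome 8, had 5155 reads in Zfp131KO and 6934 in wildtype, a log2 ratio of -0.45 (95% interval -0.50 to -0.40). Brd2, which encodes an acetyl-lysine reader, had 6093 reads in Zfp131KO and 6283 in wildtype. The RNA helicase gene Ddx5, which shares its promoter with Cep95, had 5267 reads in Zfp131KO and 5423 in wildtype. Ncl, the gene of the nucleolar protein nucleolin, had 3986 in Zfp131KO and 3772 in wildtype. Hnrnpf, Ptma, Eif4a2, Insig1 and Egr1 had log2 ratios between -0.79 for the early response gene Egr1 and -0.30 for the translation factor gene Eif4a2. All 10 log2 ratios were below 0 except that of Ncl at 0.06 (95% interval -0.01 to 0.12), and Egr1 alone lay below the median of all promoters. Scaled by reads in events, all 10 would lie above 0. ZFP131 events, from the authors' list for the HA-tagged protein, lay within 1000 bp of the starts of 7 of these 10 genes, against 17.3% of all promoters, most of which have less NELF.

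The largest ratios are given among promoters whose scaled reads in the higher genotype were at or above the median. Ak1, an adenylate kinase gene on chromosome 2, had 648 reads in Zfp131KO and 306 in wildtype, with a log2 ratio of 1.06 (95% interval 0.86 to 1.26). Lats2, a kinase gene of the Hippo pathway, had 597 reads in Zfp131KO and 286.5 in wildtype, a log2 ratio of 1.04. Dusp8, which encodes a MAP kinase phosphatase, had 668 in Zfp131KO and 328 in wildtype, with a log2 ratio of 1.00 that falls just short of 2-fold. Ccn1, a matricellular protein gene, had 2061 reads in Zfp131KO and 1269.8 in wildtype, and Mdm2, the gene of the ubiquitin ligase that degrades p53, had 2560.0 in Zfp131KO and 1668 in wildtype. The log2 ratios of Got1l1, the early response gene Egr2, the GTPase gene Rhod, the tropomyosin gene Tpm1, the mTORC1 inhibitor gene Ddit4l and the kinase gene Cdc42bpg lay between 0.70 and 0.92. Of these 11 promoters, 1 (Ccn1) had a ZFP131 event within 1000 bp, against 17.3% of all promoters, and 9 had an event of the related zinc finger protein ZBTB11, against 60.3% of all. Wildtype H3K27me3 domains lay at Lats2, Dusp8, Egr2, Rhod, Tpm1, Ddit4l and Ccn1 but not at the others, against 31.4% of all promoters. Over the 18 promoters at least 2-fold higher, 50.0% had wildtype H3K27me3 and 72.2% had under 200 wildtype reads. Among these 18, Neurod1, a neuronal transcription factor gene, had 263 reads in Zfp131KO and 81.6 in wildtype.

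Histone marks at the same promoters are given in the authors' deposited tables of DESeq2 results, where a positive value means higher in Zfp131KO. For Ak1 the authors' deposited table gives an H3K4me3 log2 fold change of 2.68 (SE 0.212, adjusted p = 5.38e-33). At Ddit4l, which restrains mTORC1, the authors' deposited table gives 1.38 for H3K4me3 (adjusted p = 2.73e-30) and -2.17 for H3K27me3 (adjusted p = 1.17e-05). Ccn1 has an H3K27me3 value of -1.47 (adjusted p = 0.0011) in the authors' deposited table. Mdm2 differs from these, with an H3K4me3 value of -0.13 (SE 0.179) and an adjusted p of 0.619 in the authors' deposited table. Dusp8 goes the other way for H3K27ac, at -1.85 (adjusted p = 0.000755) in the authors' deposited table.

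The 12 smallest log2 ratios, among promoters listed in both genotypes and at or above the median level in the higher genotype, lay between -4.08 and -3.28. Chac1, on chromosome 2, encodes an enzyme that degrades glutathione and is a target of the stress factor ATF4, and it had 175 reads in Zfp131KO against 2411 in wildtype. Its log2 ratio was -3.81 (95% interval -4.04 to -3.59). Fn1, the fibronectin gene, had 173 reads in Zfp131KO and 1724 in wildtype, and Gnas, the imprinted gene of a stimulatory G protein subunit, had 269.5 in Zfp131KO and 2582 in wildtype. All 3 had more wildtype reads than the median promoter, at 577, which follows from the choice of promoters by level. The smallest ratio among these belonged to Mlxipl, the gene of the glucose-responsive factor ChREBP, with 49.2 reads in Zfp131KO and 820.5 in wildtype (log2 ratio -4.08). Its Zfp131KO value is close to the lowest in that list, 49.0 reads. Promoters not listed in Zfp131KO have no ratio and may lie lower. Itpka, Mcf2l, H2bc9, Inppl1, E2f2, Tfeb, Iqgap2 and Nfkbid lay between -3.83 and -3.28, and all 12 would stay below -2 if scaled by reads in events. H2bc9 is a histone gene with near-identical copies, so the assignment of its reads is uncertain. ZFP131 events lay at 5 of the 12, against 17.3% of all promoters, and H3K27me3 domains at 4, against 31.4% of all. These shares of all promoters include those below the median level. For Chac1 the authors' deposited table gives H3K27ac at -1.64 (SE 0.275, adjusted p = 1.41e-07) and H3K27me3 at 2.57 (SE 0.437, adjusted p = 4.25e-07). For E2f2, a cell cycle transcription factor gene, the authors' deposited table gives H3K27ac at -0.96 (adjusted p = 0.0106) and H3K27me3 at 1.51 (adjusted p = 0.0211). In the authors' deposited table H3K4me3 was 0.79 at Mcf2l (adjusted p = 0.000126) and -0.92 at H2bc9 (adjusted p = 5.01e-07). H3K27me3 was 1.66 at Nfkbid (adjusted p = 0.0366). The remaining genes of the 12 had no mark at an adjusted p under 0.05.

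Among the 3150 promoters not listed in Zfp131KO, the one with the most wildtype reads was Psat1, whose enzyme acts in serine synthesis, with 1702 reads in wildtype. The nearest Zfp131KO event lay 59794 bp from its start. Fgf4, a growth factor gene of embryonic stem cells, had 1403 wildtype reads, with the nearest Zfp131KO event 53931 bp away. Tdgf1, which encodes a Nodal co-receptor, had 1083.5 wildtype reads. Hspb6 and Proser3, neighbours with a shared promoter region, had 1277.5 and 1199 wildtype reads, and Islr2, Ldhb, Pdia4 and Bdnf had between 1062 and 1150.1. Acaa1a, with 1037 wildtype reads, had a Zfp131KO event 1422 bp from its start, outside the window. For Psat1 the authors' deposited table gives H3K27ac at -1.32 (SE 0.351, adjusted p = 0.00152). For Bdnf, a neurotrophin gene, the authors' deposited table gives H3K27ac at -0.93 (adjusted p = 0.0224). The other genes named here had no mark at an adjusted p under 0.05. Their H3K27ac values in the authors' deposited table lay between -0.56 at Hspb6 and Proser3 and 1.05 at Ldhb.

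Of 7188 genes without any wildtype event within 1000 bp of a start, 46 had a Zfp131KO event. The highest was the histone gene H3c8, with 782 reads in Zfp131KO and a wildtype event 3043 bp away, in a cluster of near-identical copies where reads cannot be assigned with certainty. Gask1b followed with 411 reads in Zfp131KO and Fgfbp1, the gene of an FGF carrier protein, with 304. Gja1, which encodes the gap junction protein connexin 43, had 263 reads in Zfp131KO, and its nearest wildtype event lay 1115 bp from the start. Ano3, Tmem95, Zfp874a and Xkr4 had between 169.9 and 266 reads in Zfp131KO. These genes are few beside the 3150 not listed in Zfp131KO, and wildtype levels under the lowest listed value of 47.0 reads cannot be seen.

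Pluripotency promoters lay below the median ratio of all promoters. Of 25 tested genes of the core and naive network, 15 were listed and 10 were not, while 24.0% of all promoters were not listed. Those not listed include Nanog, Esrrb, Zfp42, Prdm14, Nr5a2, Dppa2, Dppa5a, Tcl1, Fgf4 and Tdgf1. The median log2 ratio of the listed members was -0.94, which is 0.21 below the median of all promoters, and 7 of them were at least 2-fold lower, against 33.5% of all listed promoters. The list's median wildtype level was 897 reads. It lay 0.49 below with a 2 kb window, 0.58 below with the more significant events (log2P of -20 or less) and 1.00 below with unlisted promoters put at the lowest listed value. Tbx3, a T-box factor gene of naive cells, had 284 reads in Zfp131KO and 1814 in wildtype (log2 ratio -2.70). Klf2 had 1141 in Zfp131KO and 2427 in wildtype, and Gbx2 and Tfcp2l1 had log2 ratios of -1.54 and -1.47. The defining markers Pou5f1 and Sox2 had 243 and 325 reads in Zfp131KO, against 1044 and 1156 in wildtype. Klf4 differed from these, with 989.6 reads in Zfp131KO and 1208.5 in wildtype.

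As a check of the labelled cell type, all 10 embryonic stem cell markers had wildtype NELF events and 5 had Zfp131KO events, with summed reads of 2762 in Zfp131KO and 9388.5 in wildtype. Of 6 fibroblast markers, none had an event in Zfp131KO and 2 had one in wildtype, with 191 reads, while Col1a1, Col1a2, Pdgfrb and Prrx1 had none in either genotype. All 5 primitive endoderm markers that were counted had events in both genotypes, with summed reads of 1568 in Zfp131KO and 1401 in wildtype. A further planned marker, Gata4, was absent from the promoters counted. All 4 neural markers had wildtype events and 3 had Zfp131KO events, with summed reads of 801.5 in Zfp131KO and 3134 in wildtype. Of 5 trophectoderm markers, 4 had wildtype events and 3 had Zfp131KO events, with 330 reads in Zfp131KO and 1154 in wildtype. Wildtype events were thus found at markers of several lineages. NELF events at a promoter do not measure expression, and the share of other cell types in the cultures was not tested. No file used here tests the deletion itself: NELF reads at the Zfp131 promoter were 494 in Zfp131KO and 755.5 in wildtype.

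Formative and primed genes, which are switched on when cells leave the naive state, had a median log2 ratio of -1.25, or 0.52 below all promoters, and 0.23 below with a 500 bp window. Their median wildtype level was 440.0 reads. Of 16 tested, 12 were listed and 9 of these were at least 2-fold lower. Zic5, a zinc finger gene, had 558.5 reads in Zfp131KO and 1786 in wildtype, and Zic2 had 590.3 in Zfp131KO and 1399.7 in wildtype. The ETS factor gene Etv5 had 1119 reads in Zfp131KO and 2190.0 in wildtype. Fgf5, Otx2, Grhl2 and Sall2 were not listed in Zfp131KO. Feedback genes of FGF and ERK signalling, with a median of 1020 wildtype reads, lay 0.13 below all promoters (0.28 with the more significant events, 0.31 with a 2 kb window), with 12 of 17 listed. Within that list Dusp6, an ERK phosphatase gene, had 1113 reads in Zfp131KO and 1728.5 in wildtype.

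Lineage lists did not go one way. Primitive endoderm genes had a median log2 ratio of -0.26, which is 0.47 above all promoters and 0.95 above with a 500 bp window, with 13 of 14 listed and 5 of the 13 above 0, against 4.97% of all listed promoters. Of these 5, Foxa2, Sox17 and Dab2 had 51.1, 73.4 and 200.2 wildtype reads. In the lowest and second of the 10 bins by wildtype reads, 37.1% and 13.7% of listed promoters lay above 0. Among the highest by reads, Col4a1 and Col4a2, basement membrane collagen genes with a shared promoter, had 858 reads in Zfp131KO and 1012 in wildtype, while the laminin genes Lamc1 and Lama1 had log2 ratios of -0.78 and -0.83. The marker Lamb1 had 735 reads in Zfp131KO and 571 in wildtype. Neural genes had a median of -1.67, or 0.94 below all promoters, and 10 of 20 listed. They lay 0.57 below with the more significant events and 0.56 below with unlisted promoters at the lowest listed value. The neuronal tubulin gene Tubb3 had 183 reads in Zfp131KO and 1155 in wildtype, and Neurog1, a proneural factor gene, had 108 in Zfp131KO and 716 in wildtype. Neurod1, given above, was the exception among them at least 2-fold higher. Trophectoderm genes had 6 of 11 listed, with a median 0.85 below all promoters (0.55 with unlisted promoters at the lowest listed value) and 248 median wildtype reads; Eomes had 190.5 reads in Zfp131KO and 630.1 in wildtype. Of mesoderm and endoderm genes, with 155 median wildtype reads, 10 of 21 were listed, 0.20 below all promoters and between 0.04 and 0.56 below in other settings, among them Hhex with 923 reads in Zfp131KO and 2249.7 in wildtype. Hox genes had 15 of 30 listed and a median 0.42 below all promoters. Wildtype H3K27me3 covered 96.7% of the Hox and 85.7% of the primitive endoderm promoters tested, against 31.4% of all, and median wildtype reads were 136 and 281 in these lists and 128 in the neural one.

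Nodal, BMP and Wnt targets had a median log2 ratio of -0.73, equal to that of all promoters, with 15 of 22 listed and 456 median wildtype reads. The list lay 0.20 above with a 500 bp window, 0.18 below with a 2 kb window and 0.28 below with unlisted promoters at the lowest listed value. The members spread widely. Nodal, a TGF-beta family ligand gene, had 650.4 reads in Zfp131KO and 843.7 in wildtype, whereas the BMP target Smad6 had 119.9 in Zfp131KO and 943 in wildtype (log2 ratio -3.00). Notum, which encodes an extracellular Wnt inhibitor, had 207 in Zfp131KO and 889 in wildtype.

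Targets of p53, with 1260 median wildtype reads, had the highest median of the 27 lists with tested members, except with a 500 bp window, where they lay 0.71 above all promoters and primitive endoderm genes 0.95 above. All 22 tested were listed, the median log2 ratio was 0.00, or 0.73 above all promoters, and 11 lay above 0, against 4.97% of all listed promoters. None of the 22 was at least 2-fold higher, against 0.181% of all. Cdkn1a, the gene of the cell cycle inhibitor p21, had 2299 reads in Zfp131KO and 2064 in wildtype, a log2 ratio of 0.13 (95% interval 0.05 to 0.22). Btg2, an antiproliferative gene, had 2506 in Zfp131KO and 2308 in wildtype, and Trp53inp1 had 2514 in Zfp131KO and 2411 in wildtype. Sesn2, whose product restrains mTORC1, had 2089 in Zfp131KO and 3032 in wildtype. In all, 19 of the 22 lay above the median ratio of all promoters, and 31.8% had wildtype H3K27me3.

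Immediate early genes, with 1360 median wildtype reads, lay 0.40 above all promoters (0.25 with the more significant events, 0.20 with a 2 kb window), with 26 of 28 listed and 20 of them above the median of all promoters. Jun, a subunit gene of AP-1, had 2424 reads in Zfp131KO and 2418 in wildtype, and the phosphatase gene Dusp1 had 2345 in Zfp131KO and 2861 in wildtype. Not listed in Zfp131KO were Egr3 and Fosl1. Genes of the integrated stress response, which ATF4 drives, lay 0.13 below all promoters (0.21 with unlisted promoters at the lowest listed value), with 14 of 18 listed and 1370 median wildtype reads. Ppp1r15a, which encodes a phosphatase subunit that restores translation, had 1716 reads in Zfp131KO and 2031 in wildtype, while Chac1, given above, was among the smallest ratios. The serine pathway genes Phgdh, Psat1 and Shmt2 and the stress factor gene Nupr1 were not listed. Heat shock genes had 11 of 13 listed and a median 0.03 above all promoters (up to 0.15 in other settings), at 2150 median wildtype reads, with Hsp90aa1 at 2874 reads in Zfp131KO and 2548 in wildtype. The inducible chaperone genes Hspa1a and Hspa1b, which are near-identical copies, were not listed in Zfp131KO.

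Translation and energy genes lay above the median of all promoters. Of 74 cytosolic ribosomal protein genes 64 were listed, with a median log2 ratio of -0.31, or 0.42 above all promoters; 60 of the 64 lay above the median of all promoters, and 1 was at least 2-fold lower, against 33.5% of all. Rps2 had 3165.5 reads in Zfp131KO and 3158 in wildtype, and Rpl12 had 2287 in Zfp131KO and 2830.5 in wildtype. Ribosomal protein genes have many near-identical processed copies, so the assignment of reads near their starts is uncertain. Mitochondrial ribosomal protein genes (73 of 77 listed) lay 0.26 above all promoters, ribosome biogenesis genes (36 of 37) 0.27 above, complex I genes (32 of 34) 0.32 above and proteasome genes (all 32) 0.29 above. Housekeeping genes lay 0.42 above with all 12 listed, for example Gapdh with 2167 reads in Zfp131KO and 2800.0 in wildtype and Ppia with 2860.2 in Zfp131KO and 2745 in wildtype. Median wildtype reads were 1710 for cytosolic ribosomal protein, 1680 for housekeeping, 1110 for ribosome biogenesis, 929 for proteasome and 662 for complex I genes, against 577 for all promoters. Replication-dependent histone genes, whose median wildtype level was 2430 reads, lay 0.30 below all promoters (0.18 with unlisted promoters at the lowest listed value), and 10 of 18 listed were at least 2-fold lower. H1f3, a linker histone gene, had 1819 reads in Zfp131KO and 3636.5 in wildtype.

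Genes of the pausing machinery itself were listed in 21 of 22 cases and lay 0.23 above all promoters (0.35 with unlisted promoters at the lowest listed value), with 1070 median wildtype reads and Ell3 not listed. Ccnt1, the cyclin subunit gene of P-TEFb, had 1802 reads in Zfp131KO and 2048 in wildtype. Hexim1, whose product holds P-TEFb inactive, had 1472 in Zfp131KO and 1924 in wildtype. Mepce, which encodes the enzyme that caps 7SK RNA, had 1716 in Zfp131KO and 1907 in wildtype. Genes of H3K4 methyltransferase complexes lay 0.04 above and those of NuRD and SIN3 0.03 above all promoters, with 1020 and 927 median wildtype reads, and both lay below it in other settings, at -0.05 and -0.07 at the lowest. Polycomb genes, with 887 median wildtype reads, lay 0.14 above all promoters, and Ezh2, the H3K27 methyltransferase gene, had 1493 reads in Zfp131KO and 2328 in wildtype. Imprinted genes lay 0.35 above with 20 of 22 listed and 510 median wildtype reads. The fibroblast list had 2 of 4 tested genes listed, and none of the two-cell-like genes reached the minimum of 50 wildtype reads. The gene of the related factor, Zbtb11, had 677.5 reads in Zfp131KO and 1070.2 in wildtype, and with Zfp131 the genes of the factors under study lay 0.09 above all promoters, and 0.14 below with a 500 bp window.

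**Figure D3:**
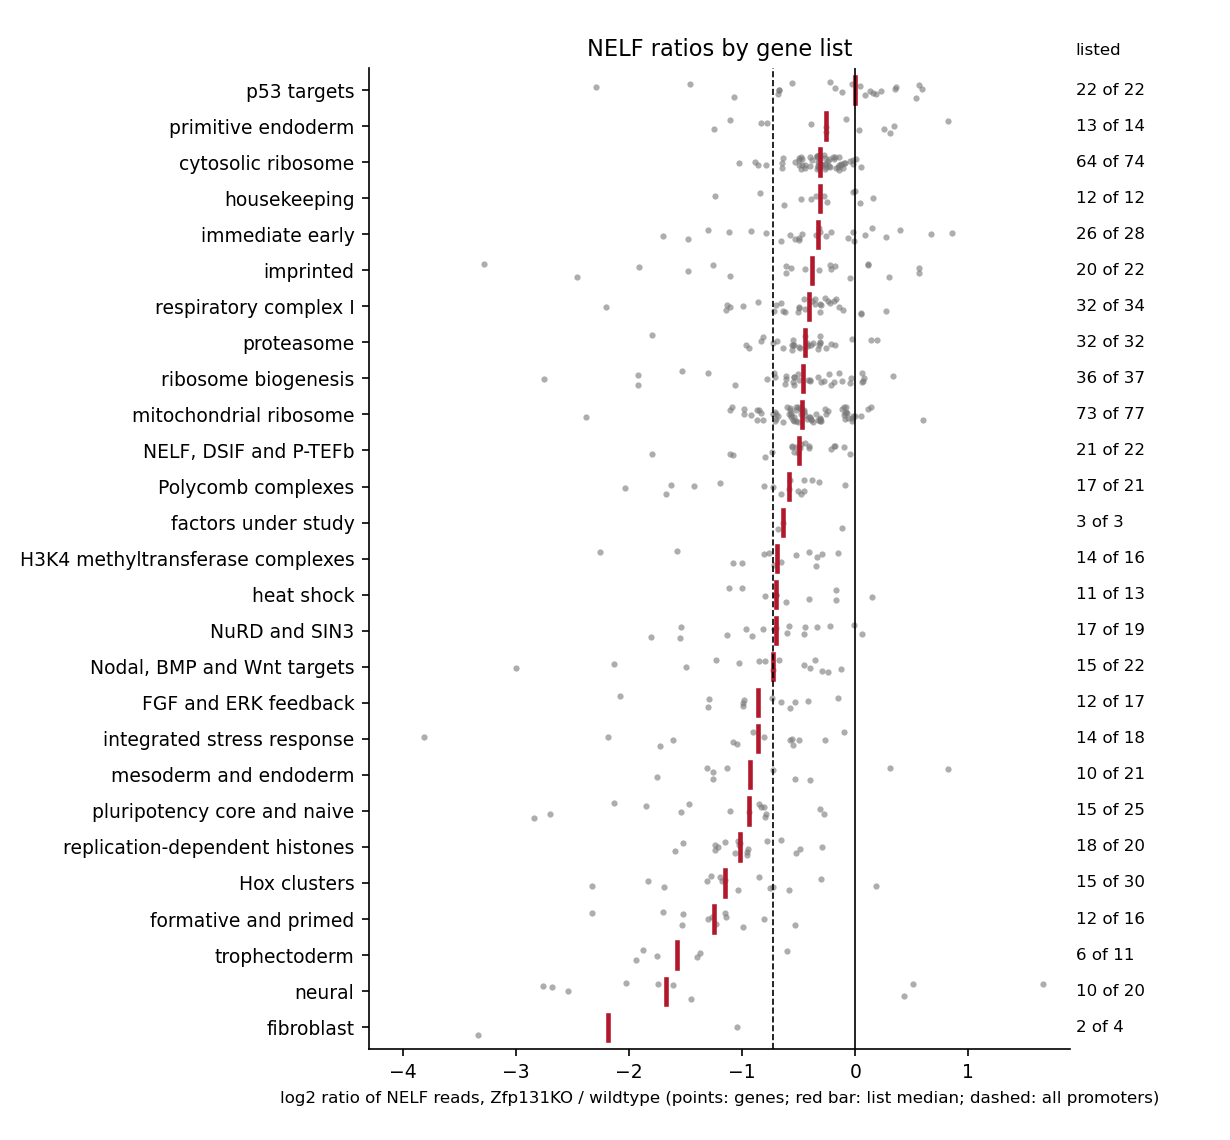
Log2 ratio of Zfp131KO over wildtype NELF reads for the listed members of each gene list (points), with the list median (bar) and the median of all promoters, -0.73, as a line; the numbers give listed over tested members. In this setting the p53 targets lie highest, with a median of 0.00, and primitive endoderm genes lie above them with a 500 bp window; the neural list lies at -1.67.

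The place of NELF along the promoter differed little between the genotypes. At 5131 genes with a single isolated start and an event in both genotypes, the strongest event lay at a median of 122 bp downstream of the start in each. The quartiles were 71 and 171 bp in Zfp131KO and 61 and 172 bp in wildtype. The strongest event lay downstream in 82.8% of genes in Zfp131KO and 80.5% in wildtype, and it moved by at most 50 bp in 75.2% of genes. Genes had fewer events in Zfp131KO, 1.56 on average against 2.38 in wildtype. Events on both sides of the start were found at 31.0% of genes in Zfp131KO and 63.3% in wildtype, and the upstream share of reads was 22.3% in Zfp131KO and 28.1% in wildtype. Upstream events are smaller, and among wildtype events of 200 to 400 reads a Zfp131KO event within 500 bp was found for 87.3% of those up to 500 bp upstream and 82.6% of those up to 300 bp downstream.

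**Figure D4:**
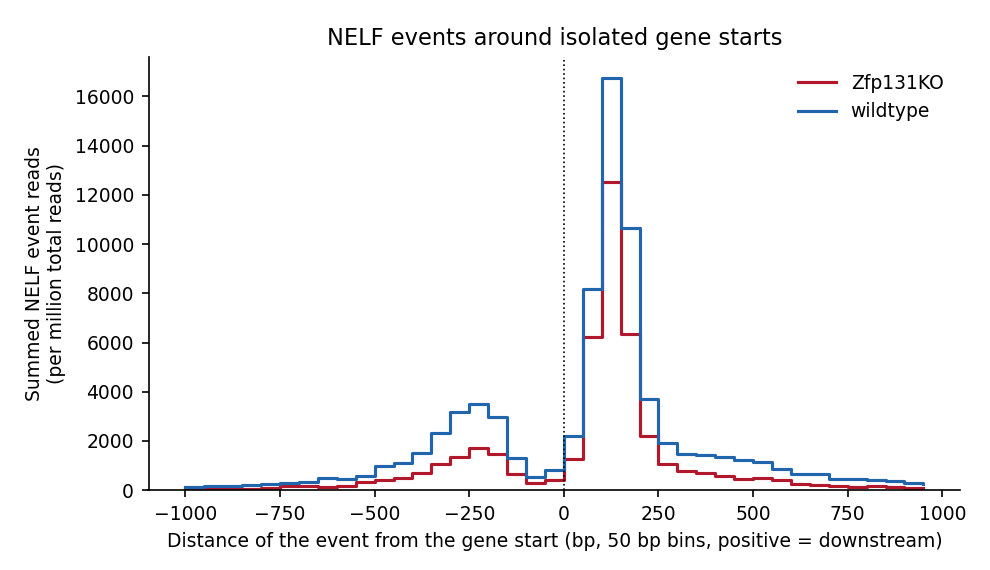
NELF reads in events scaled by total reads (RPM), summed by distance from the start (bp, downstream positive) over 13014 genes with 1 isolated start, in Zfp131KO and wildtype. Both curves peak downstream of the start, and the strongest event lies at a median of 122 bp in each genotype.

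Promoters were then grouped by factors and marks in the authors' other lists. ZFP131 events, like those of ZBTB11, were called on the HA-tagged protein induced with doxycycline in medium with the kinase inhibitors, not in the medium of the NELF samples. They lay at 2273 promoters, of which 93.2% were listed in Zfp131KO with a median log2 ratio of -0.65. ZBTB11 without ZFP131 lay at 6030 promoters, 86.7% listed with a median of -0.71, and 4810 promoters with neither had 54.4% listed and a median of -0.85. ZFP131 promoters had median wildtype reads of 902, against 308 where neither factor was found. In the highest of 5 equal bins by wildtype reads the medians were -0.49 with ZFP131 and -0.68 with neither. In the second bin they were -1.02 with ZFP131 and -0.97 with neither. From the lowest to the highest of 4 equal bins of ZFP131 promoters by ZFP131 reads, the NELF medians were -0.89, -0.57, -0.53 and -0.70, with no single direction. The promoter shared by the ribosomal protein gene Rpl18 and Sphk2, with the most ZFP131 reads, had 2017 NELF reads in Zfp131KO for both genes, against 2239 for Rpl18 and 2655 for Sphk2 in wildtype. Nup214, a nuclear pore gene whose promoter also ranked among those with the most ZFP131, was not listed in Zfp131KO and had 1014 reads in wildtype.

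Promoters with wildtype H3K27me3, the Polycomb mark, had lower ratios. Of 4121 such promoters 58.9% were listed, with a median log2 ratio of -1.14, and 58.3% of those listed were at least 2-fold lower. Of 8788 promoters with H3K4me3 and no H3K27me3, 85.2% were listed, with a median of -0.64 and 25.6% at least 2-fold lower. Median wildtype reads were 267 and 757 in these classes. Within 5 equal bins of promoters by wildtype reads the H3K27me3 class had the lower median in each, at -0.65, -1.29, -1.36, -1.15 and -0.89 from the lowest to the highest, against -0.39, -0.73, -0.76, -0.66 and -0.53 with H3K4me3 alone. The share listed differed less between the classes, at 89.2% with H3K27me3 and 91.3% without in the middle one. Promoters without wildtype H3K27ac, a mark of active promoters, had 40.2% listed and a median of -1.14, against 87.6% and -0.69 with it. Their median wildtype reads were 162, against 744 with H3K27ac. In the middle of the 5 bins by wildtype reads, 80.5% without H3K27ac and 91.8% with it were listed. The medians there were -1.38 and -0.85.

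The authors' histone mark calls differed between promoters with more and less NELF. In the authors' deposited table of H3K4me3, 35.6% of 12917 NELF promoters with a region were higher in Zfp131KO at an adjusted p under 0.05, and the share was 59.2% where NELF was not lower, 45.9% where it was lower by under 2-fold, 33.1% where at least 2-fold lower and 13.6% where not listed, while 3.55% of all were lower. For H3K27ac the authors' deposited table calls 11.2% lower among all, with 7.04%, 6.58%, 16.5% and 21.3% in the same order of classes, and 3.71% higher among all. For H3K27me3 the authors' deposited table calls 6.78% lower among all and 22.8% (34 of 149) where NELF was not lower, while 9.64% were higher among all and 1.34% in that class. Wildtype NELF reads differ between these classes, with medians of 420.0, 870, 605 and 158, and the calls depend on the reads of each mark, whose part was not tested.

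Promoter sequences of the classes differed in composition. Motifs were searched on both strands in RefSeq promoters of 300 bases. The GC box GGGCGG was present in 68.5% of the 10651 promoters with the minimum of wildtype reads and a sequence, and in 47.2% of all 17492. Its share was 75.9% where NELF was at least 2-fold lower, 69.6% where lower by under 2-fold, 65.4% where not lower and 58.2% where not listed. The ETS motif CCGGAAGT was present in 7.97% of promoters with the minimum of reads and in 5.33% of all. Its share was 12.3% with NELF lower by under 2-fold and 11.2% not lower, against 4.43% at least 2-fold lower and 2.33% not listed. Among promoters of 200 reads or more in wildtype, the shares of these first 2 classes lay between 9.89% and 20.4% in each range of reads, and those of the other 2 between 2.9% and 5.71%. Between 50 and 200 reads all 4 lay between 1.0% and 3.48%. The TATA box TATAAA lay in 6.28% of promoters with the minimum of reads and in 13.2% of all, and in 10.7% of those not lower, against 5.68% of those at least 2-fold lower. The cyclic AMP response element, found in the Dusp8 promoter printed above, was present in 3.33% of promoters with the minimum of reads, in 2.36% of all and in 5.47% (22 of 402) of those not lower. Where not lower, the share was 10.1% at 800 wildtype reads or more and 2.15% at 400 to 800. The other classes lay between 3.23% and 4.57% in the first range and between 2.34% and 3.78% in the second. Median GC content was 65.0% where NELF was at least 2-fold lower and 59.3% where it was not lower. The letters of the GC box and the CpG content go together, none of the motifs contains another, and no motif was tested against chance.

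Away from promoters far fewer events were found in Zfp131KO. Starts of protein-coding genes held 72.4% of the Zfp131KO events and 44.9% of the wildtype events, and distal positions, over 1000 bp from any gene end, held 20.7% of the Zfp131KO events and 44.9% of the wildtype events. Of all wildtype events 43.4% (26423) had a Zfp131KO event within 500 bp, at 73.7% of those at starts and 16.3% of distal ones. In the other direction 94.9% of Zfp131KO events had a wildtype event, and 1038 had none. Distal events are weaker, with a median of 111 reads in Zfp131KO and 78.3 in wildtype, so the places were also set side by side at equal wildtype reads. Of wildtype events of 200 to 400 reads, 86.0% at starts and 58.0% of distal ones had a Zfp131KO event. Joined into sites, 22334 distal sites reached 50 wildtype reads, and 19608 (87.8%) were not listed in Zfp131KO. The 2726 listed sites had a median log2 ratio of -0.51, with 747 (27.4%) at least 2-fold lower and 134 (4.92%) at least 2-fold higher. As at promoters, a site with few wildtype reads can be listed only when its ratio is high, and 14708 sites had 50 to 100. The median of listed sites was 0.16 at 50 to 100 wildtype reads and -0.94 at 200 to 400. For promoters of these levels it was -0.1 and -1.0. At sites of 400 to 800 wildtype reads, 67.7% were listed with a median of -1.04, against 90.2% and -0.88 for promoters of the same level.

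Distal sites with the most wildtype NELF and an event in both genotypes all carried H3K4me3, H3K27ac and polymerase phosphorylated at serine 5 in wildtype, so some may be starts not in the tables used. The highest, at chr5:142906510-142906677 (mm10) inside the actin gene Actb, had 2924 reads in Zfp131KO and 2496 in wildtype. A site at chr8:70698930-70699375 inside Jund, a single-exon AP-1 gene, had 2058 reads in Zfp131KO and 2295 in wildtype. Sites inside Iqschfp and Puf60 and one 45735 bp from Rbx1 had log2 ratios between -0.61 and 0.13, and the one in Puf60 overlapped a ZFP131 event. Sites not listed in Zfp131KO included chr6:122702337-122703651, which lies 3838 bp from Nanog and had 881 wildtype reads. The highest of these was chr17:45456258-45459478 inside Spats1, with 1488 wildtype reads, and others lay inside Gpx4 and 11213 bp from Idh2, 6315 bp from Ncs1 and 64010 bp from Fam53a. The nearest gene is given as a position and not as a target. Sites found in Zfp131KO alone were smaller, the highest being chr8:12457163-12457832, 57608 bp from Sox1, with 377 reads. A site at chr4:154081996-154082405 inside Trp73, a p53 family gene, had 322.5 reads in Zfp131KO, with a wildtype event 889 bp away. Others lay inside Dgki and Gm37013 and 10974 bp from Apoa5, with 289.6 to 377 reads.

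Distal wildtype events were also followed by their marks within 500 bp. Among those of 100 to 200 reads, 26.0% had a Zfp131KO event. The share was 30.7% with H3K4me3, 12.3% with H3K27ac and no H3K4me3, 7.44% with serine 5 phosphorylated polymerase and neither of these marks, and 1.92% with none of the 3. It was 70.1% (Wilson 95% interval 63.3 to 76.0) of 197 events with ZFP131, 47.8% of 1379 with ZBTB11 and no ZFP131, and 39.3% of 1070 with H3K27me3. Distal events with ZFP131 were few, 239 in Zfp131KO and 496 in wildtype of all distal events.

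**Figure D5:**
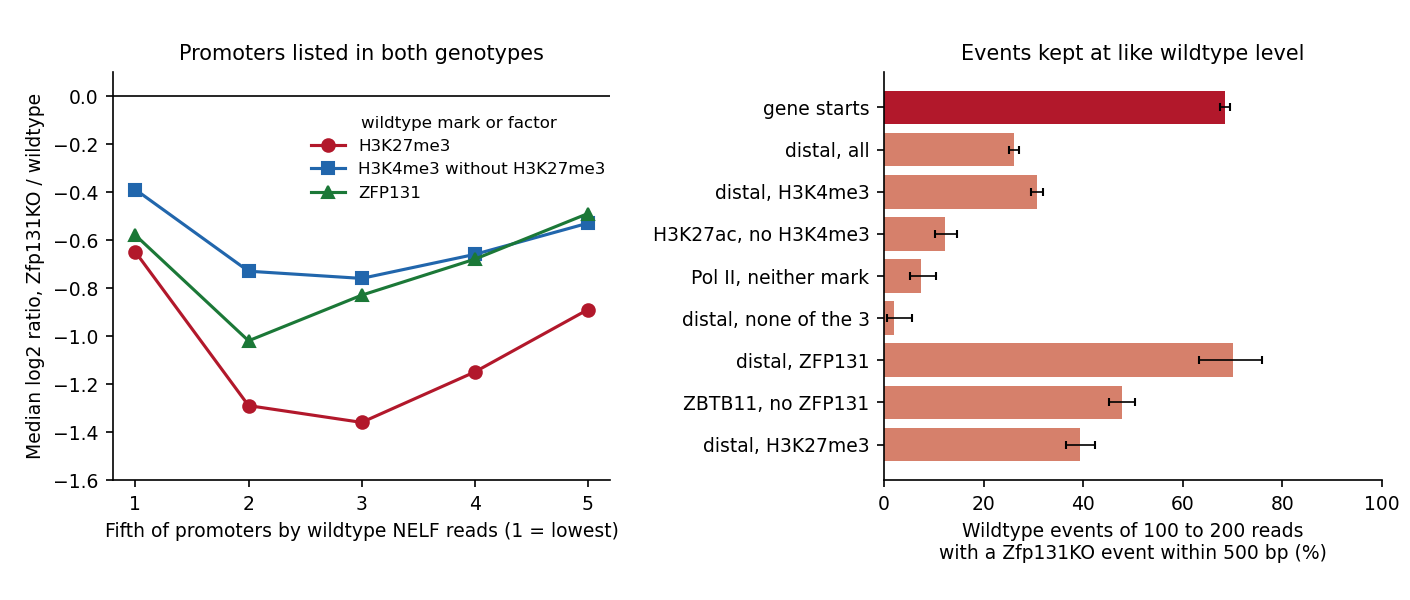
Left, median log2 ratio of Zfp131KO over wildtype NELF reads among promoters listed in both genotypes, by 5 equal bins of wildtype reads, for promoters with H3K27me3, with H3K4me3 and no H3K27me3, and with ZFP131. Right, percent of wildtype events of 100 to 200 reads that had a Zfp131KO event within 500 bp, with Wilson 95% intervals, for gene starts and for classes of distal events. The H3K27me3 class is lowest in every bin on the left, and on the right distal events with ZFP131 reach 70.1%, beside 68.4% at gene starts and 26.0% of all distal events.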

How the data were processed

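NELF ChIP-seq of 2 Zfp131KO and 2 wildtype libraries was used, after crosslinking with DSG and formaldehyde. The submitters' processing notes name Bowtie 1.0.1 and the mm10 build. The authors called binding events with MultiGPS, per the file headers, and pooled the libraries of a genotype. The values used are the estimated counts of reads per event, deposited by the authors without normalization. The whole counts in the file headers, deposited with them, are the total reads. The log2 significance (log2P) of each event, deposited by the authors, served in a stricter alternative. Of the deposited domain lists of histone marks, the positions were used, not the counts per domain. The mean signal per region in the authors' deposited tables chose the region where a promoter had several. The test score in the authors' deposited tables was not used. Log2 fold changes, SEs and adjusted p-values of histone marks are from the authors' deposited tables, made with DESeq2 1.28.1 per the submitters' processing notes. The deposited NELF table for this comparison holds the same values as the one for another knockout and was not used.

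Reads were scaled by total reads and summed over events within 1000 bp of the starts of each protein-coding gene, with a minimum of 50 wildtype reads; events within 500 bp counted as shared. Distal events were over 1000 bp from any gene end, and distal events within 500 bp were joined into sites. Ratios have exact conditional Poisson intervals and shares Wilson intervals, at 95.0%; both cover counting error only. Calculations used Python 3.11.15, numpy 2.4.6, pandas 2.3.3 and scipy 1.17.1 and were tested on simulated data. Precision follows depth, 61.5 M reads in Zfp131KO and 60.5 M in wildtype.

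Alternatives were another window, minimum, scaling, significance and control subtraction; counting each set of events once was chosen after seeing the data. Named genes are those with the largest and smallest ratios, the most reads, no event in 1 genotype, and up to 4 members of each list by wildtype reads, at or above the median level. Markers, Neurod1, Klf4, Lamb1, the members not listed and the promoters with the most ZFP131 were named outside that rule after their values were seen. The gene lists and members were chosen with earlier results of these data known. The labels do not say whether libraries come from separate cultures. A few named items of these rules are not reported here.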

Additional observations from a re-analysis of the deposited data

How the results depend on the processing

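The scaling decided the direction of the median for all promoters, for distal sites and for ZFP131 promoters, but not for H3K27me3 promoters. Scaled by reads in events, 422 promoters were at least 2-fold lower (main 3340) and 650 higher (main 18). The median promoter log2 ratio was then 0.33 (main -0.73) and the distal one 0.55 (main -0.51). The ZFP131 median was 0.41 (main -0.65) and the H3K27me3 median -0.08 (main -1.14). Under the other settings these medians kept their sign. For all promoters the median was -0.87 after control subtraction, -0.70 with events at log2P of -20 or less, -0.85 with unlisted promoters at the lowest value, -0.76 and -0.66 with the window at 2 kb and 500 bp. For H3K27me3 it was -1.09 (log2P), -1.18 (minimum of 100), -1.23 (lowest value), -1.18 and -1.02 (windows). For ZFP131 it was -0.69 (lowest value), -0.68 and -0.59 (windows). For distal sites it was -0.45 (log2P), -0.60 and -0.31 (distances of 1000 and 200 bp). With a minimum of 100 reads 7 promoters were 2-fold higher. Promoters listed were 82.1% (minimum of 100), 71.8% (log2P) and 75% (each set of events once). At 1000 bp, at 200 bp and under log2P, wildtype events with a Zfp131KO event were 48.9%, 32.0% and 50.1%, distal ones 20.0%, 11.7% and 18.5%, and Zfp131KO events with a wildtype event 95.5%, 92.3% and 95.7%. The causes were not tested. Of 27 lists, 23 stayed on one side of the median of all promoters in every setting; the factors under study lay at -0.14 with the 500 bp window. No paired analysis was possible because each genotype is 1 pooled list, which is also why no replicate could be left out. Depth limits what is seen to events of at least 49.0 reads in Zfp131KO and 47.0 in wildtype.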

Other observations

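The ratio of Zfp131KO over wildtype NELF varied little between chromosomes. The median log2 ratio of listed promoters lay between -0.82 on chromosome 5 and -0.59 on chromosome 18, and it was -0.80 on chromosome X. The share of promoters listed in Zfp131KO was lowest on chromosome 7, at 68.6% of 1039 promoters, and highest on chromosome 16, at 82.2% of 388. Median wildtype reads were 521 on chromosome 7 and 716 on chromosome 16. Promoters without serine 5 phosphorylated polymerase in wildtype were listed in 26.1% of 1800 cases, against 83.9% with it, and their median wildtype reads were 106 against 670.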
